A study of Homo sapiens with 27 samples.

Results

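A pair of truncation mutants of GATA3 was set directly against each other, the splice site deletion (Splice del) and the C321 frameshift (C321fs), by RNA-seq of T47D cells that express one or the other. T47D is an established luminal breast cancer cell line. The 3 libraries titled Splice and the 3 titled C321fs were taken by their titles, 6 of the 12 RNA-seq libraries and of the 27 samples of the series. Each mutant was expressed as a Ty1-tagged protein from a lentiviral vector in a puromycin-selected stable pool, and the 3 libraries of a mutant come from its single pool, so a difference between the pools that has another origin cannot be told apart from the mutant. Both pools were derived from the same T47D cells, still expressed wild-type GATA3 and were at fewer than 10 passages. The other 6 libraries, from cells with the empty vector (control) and from cells with the A333 frameshift (A333fs), entered the fit and are used here only to place the genes that part the 2 mutants.

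GATA3 is a zinc finger transcription factor that binds GATA sequences and sets the identity of the luminal epithelium of the breast, where it acts with ESR1 and FOXA1. The second of its zinc fingers makes the main contact with DNA. The Splice del protein has lost the whole normal sequence of that finger, whereas the C321fs protein has kept a part of it. The question of the comparison is which genes and functions differ between cells with the one truncation and cells with the other.

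The 6 libraries held 27872208 to 36788024 counted fragments. Of the tested genes, 261 were higher in Splice del than in C321fs, which is 1.76% of 14789, and 130 were higher in C321fs, which is 0.879%, at a fold change over 1.5 (edgeR's quasi-likelihood test, Benjamini-Hochberg adjusted p below 0.01). The median fold change was 1.92 among the former and 1.77 among the latter. At any fold change, 618 genes (4.18%) and 317 genes (2.14%) passed. In all 391 called genes the 3 libraries of one mutant lay above the 3 of the other, as they did in 15.4% of tested genes with Splice del above and in 14.3% with C321fs above. The C321fs libraries spread more than the Splice del libraries, with a chi-square per gene between pairs of replicates of 5.72 to 28.4 against 2.17 to 5.76, and C321fs replicates 1 and 3 were farthest apart.

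**Figure D1:**
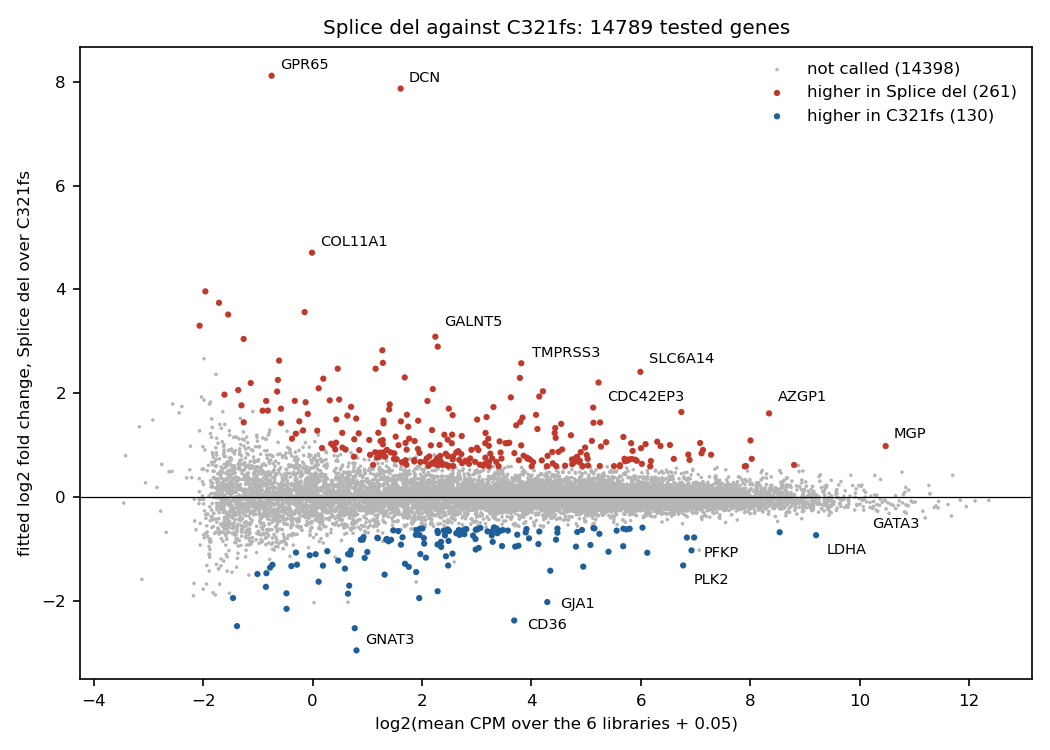
Fitted log2 fold change of Splice del over C321fs for each of the 14789 tested genes (vertical) against log2 of the mean CPM of the 6 libraries plus 0.05 (horizontal), with the 261 genes called higher in Splice del in red and the 130 called higher in C321fs in blue. The red points reach farther from 0 than the blue ones, with DCN and GPR65 at the top and GNAT3 at the bottom.

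GATA3 itself (chr10:8054704-8075201, hg38) stood at 962, 992 and 1050.5 CPM (fragments counted for a gene, scaled to the size of the library) in the 3 Splice del libraries and at 1142, 1130.2 and 1155 in the 3 C321fs libraries. All Splice del libraries were below all C321fs libraries, by 0.19 ± 0.05 (SE) on the log2 scale (adjusted p = 0.022), and the gene was not called. The gene count holds wild-type and vector transcripts together. All 11 luminal markers were measured and none was called, with a summed level of 12409 to 13322 CPM in Splice del and 13126 to 13830 CPM in C321fs. ESR1, the estrogen receptor, was at 259, 268 and 250.3 CPM in Splice del and at 201, 223 and 232 CPM in C321fs, so the libraries did not overlap, with an adjusted p of 0.015. FOXA1, its pioneer factor, was higher in Splice del by 0.22 ± 0.05 on the log2 scale (adjusted p = 0.0044), below the fold change limit.

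The sequences just before the start sites of a few genes that stood out in the comparison are shown here, from the RefSeq annotation of GRCh38.p14. Each is the 250 bases upstream of the annotated start on the gene's own strand, 5′ to 3′, and that start may differ from the one used in these cells. The first set holds genes of glycolysis and the hypoxia response that were higher in C321fs and were picked because they hold a match, with matches to ACGTG (either strand, the core of the sequence bound by hypoxia-inducible factors) in capitals. CA9 lies at chr9:35673678-35673927 (+), LDHA at chr11:18394313-18394562 (+), PGK1 at chrX:78103998-78104247 (+) and BNIP3 at chr10:131981924-131982173 (−).
CA9: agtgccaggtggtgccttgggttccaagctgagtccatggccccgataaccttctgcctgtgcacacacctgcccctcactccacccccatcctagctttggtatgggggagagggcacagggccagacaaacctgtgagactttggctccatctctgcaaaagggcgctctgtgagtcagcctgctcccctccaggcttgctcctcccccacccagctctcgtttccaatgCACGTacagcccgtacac
LDHA: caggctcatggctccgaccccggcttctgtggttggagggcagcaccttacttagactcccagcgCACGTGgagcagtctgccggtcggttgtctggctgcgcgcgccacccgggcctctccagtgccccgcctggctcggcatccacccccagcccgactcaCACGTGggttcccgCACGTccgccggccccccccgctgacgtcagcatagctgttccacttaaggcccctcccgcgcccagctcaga
PGK1: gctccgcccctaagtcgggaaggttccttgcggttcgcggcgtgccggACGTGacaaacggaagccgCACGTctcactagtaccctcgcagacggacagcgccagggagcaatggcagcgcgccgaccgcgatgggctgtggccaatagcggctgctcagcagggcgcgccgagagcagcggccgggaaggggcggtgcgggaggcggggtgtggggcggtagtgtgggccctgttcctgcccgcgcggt
BNIP3: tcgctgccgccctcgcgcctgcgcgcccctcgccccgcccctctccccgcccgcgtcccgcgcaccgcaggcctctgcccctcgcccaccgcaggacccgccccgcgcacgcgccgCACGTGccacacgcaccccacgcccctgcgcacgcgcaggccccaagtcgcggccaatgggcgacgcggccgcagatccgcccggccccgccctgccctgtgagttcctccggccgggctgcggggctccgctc
The match began 18 bases before the start of CA9 and 134 bases before that of BNIP3, and LDHA held 3 separate matches at 185, 87 and 73 bases. Overlapping matches were joined. Over all tested genes with a promoter in the table, 23.2% of 11369 held ACGTG in this window. The share was 22.3% of 94 genes higher in C321fs and 13.5% of 208 genes higher in Splice del. Of the 14 genes of the hypoxia and glycolysis lists that were higher in C321fs, 11 had a promoter and 6 of these held the motif. They were ALDOC, BNIP3, CA9, LDHA, PGK1 and PPFIA4. Of these, PPFIA4 (-0.80) was not called without Splice del replicate 1 or 2 (adjusted p = 0.0116 and 0.0108). ALDOC and CA9 are taken up below with the libraries their calls rest on. The motif was not counted in the other members of these lists, so the 6 of 11 cannot be tied to the direction of the difference.

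The second set holds genes that were among the called genes higher in Splice del and were picked because they hold a GATA match, with matches to the GATA sequences (AGATAA or its form AGATAG, and both with a leading T as in TGATAA, on either strand) in capitals. SLC6A14 lies at chrX:116436356-116436605 (+), CDC42EP3 at chr2:37672950-37673199 (−), TMPRSS3 at chr21:42389150-42389399 (−) and COLCA1 at chr11:111305049-111305298 (−). CYP4F22 (2.90), GPRC5B (2.83), CEACAM1 (2.47) and CGNL1 (2.30), which had similar or larger differences, held no match.
SLC6A14: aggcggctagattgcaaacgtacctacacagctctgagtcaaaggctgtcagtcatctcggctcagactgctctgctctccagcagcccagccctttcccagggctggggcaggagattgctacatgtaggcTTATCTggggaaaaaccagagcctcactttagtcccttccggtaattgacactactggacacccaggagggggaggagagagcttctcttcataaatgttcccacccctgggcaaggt
CDC42EP3: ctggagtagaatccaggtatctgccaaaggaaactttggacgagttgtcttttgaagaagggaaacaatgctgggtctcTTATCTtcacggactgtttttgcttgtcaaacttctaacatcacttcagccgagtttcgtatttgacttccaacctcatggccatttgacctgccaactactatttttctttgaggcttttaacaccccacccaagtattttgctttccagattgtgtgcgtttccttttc
TMPRSS3: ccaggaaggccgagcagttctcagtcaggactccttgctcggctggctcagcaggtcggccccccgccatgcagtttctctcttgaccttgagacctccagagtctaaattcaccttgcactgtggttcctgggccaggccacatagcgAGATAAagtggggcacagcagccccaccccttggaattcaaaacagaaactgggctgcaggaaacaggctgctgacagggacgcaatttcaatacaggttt
COLCA1: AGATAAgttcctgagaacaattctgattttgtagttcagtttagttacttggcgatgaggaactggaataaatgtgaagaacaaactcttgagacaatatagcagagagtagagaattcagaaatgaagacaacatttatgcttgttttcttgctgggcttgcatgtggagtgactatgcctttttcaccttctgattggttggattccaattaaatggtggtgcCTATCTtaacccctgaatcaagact
Such a match was present in 13.1% of the promoters of all tested genes, in 13.9% of those of genes higher in Splice del (29 of 208) and in 14.9% of those of genes higher in C321fs (14 of 94). The shares of both groups of genes were thus near the background. A match is a run of letters and not a measured binding site.

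Most tested genes of the secretory and apocrine mammary list, of secreted proteins, mucins and some membrane proteins, were higher in Splice del. Like the other lists, it was written with earlier results of these data known. It counts AZGP1 and its pseudogene copy AZGP1P1 as separate members. Of its 36 members 26 were tested, and 18 of these (69.2%) were higher in Splice del, against 1.76% of all tested genes. None was higher in C321fs (by edgeR or DESeq2, with 1 at an unadjusted p below 0.05). The list's median log2 fold change was 0.91 against -0.01 over all tested genes. In 22 of the 26 all Splice del libraries were above all C321fs libraries, against 15.4% of all tested genes. With 1 library left out, 13 to 17 members were called. In bulk RNA, a gene that is higher in each cell and one that is active in more of the cells cannot be told apart.

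AZGP1 (chr7:99966727-99976112), a secreted zinc-binding glycoprotein, was at 482, 478 and 507 CPM in the Splice del libraries and at 167, 158 and 156 CPM in the C321fs libraries. No C321fs library came near a Splice del library, and the log2 fold change was 1.61 ± 0.06 (adjusted p = 8.6e-11). Its pseudogene copy AZGP1P1 differed by 1.46, and the counts of such near-identical copies are uncertain. TFF3, a trefoil peptide secreted with mucins, was at 156, 155 and 174 CPM in Splice del and at 61.9, 52.6 and 41.5 CPM in C321fs, a log2 fold change of 1.64 ± 0.10 (adjusted p = 1.7e-08). The 2 groups did not overlap although the C321fs libraries spread widely.

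TMPRSS3, a membrane serine protease, had one of the larger contrasts of the list. It was at 24.0, 23.5 and 24.5 CPM in Splice del and at 3.5, 4.89 and 3.73 CPM in C321fs (log2 fold change 2.58 ± 0.13, adjusted p = 1e-09). CEACAM1, a cell adhesion molecule of the carcinoembryonic antigen family, was at 3.51, 3.63 and 3.9 CPM against 0.609, 0.659 and 0.713 CPM (2.47 ± 0.18, adjusted p = 7.1e-08), and its relative CEACAM6 differed by 1.78. The STEAP family includes metalloreductases, which reduce iron and copper at membranes. Of its members, STEAP4 was higher in Splice del by 1.92 ± 0.10, STEAP1 by 1.45 ± 0.11 and STEAP2 by 0.77 ± 0.08. STEAP4 was at 18.4, 19.98 and 19.7 CPM against 4.35, 6.03 and 5.05 CPM, with no overlap.

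Some secretory members were near the limits of the call. PIP, the prolactin-inducible protein, was at 278, 295 and 287 CPM in Splice del and at 200.4, 195 and 177 CPM in C321fs (0.59 ± 0.06), and its log2 fold change was 0.54 without C321fs replicate 3 and 0.57 without Splice del replicate 2, both below the fold change limit. The mucin MUC1 differed by 0.59, with a value of 0.43 without Splice del replicate 3 and of 0.55 without C321fs replicate 1 or replicate 2, where it was not called. ORM2, an acute phase protein, lost its call without either of C321fs replicates 2 and 3 or Splice del replicates 1 and 2 (adjusted p = 0.0158 to 0.0264). ELF5, the transcription factor of the secretory lineage, differed by 0.15 and was not called.

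**Figure D2:**
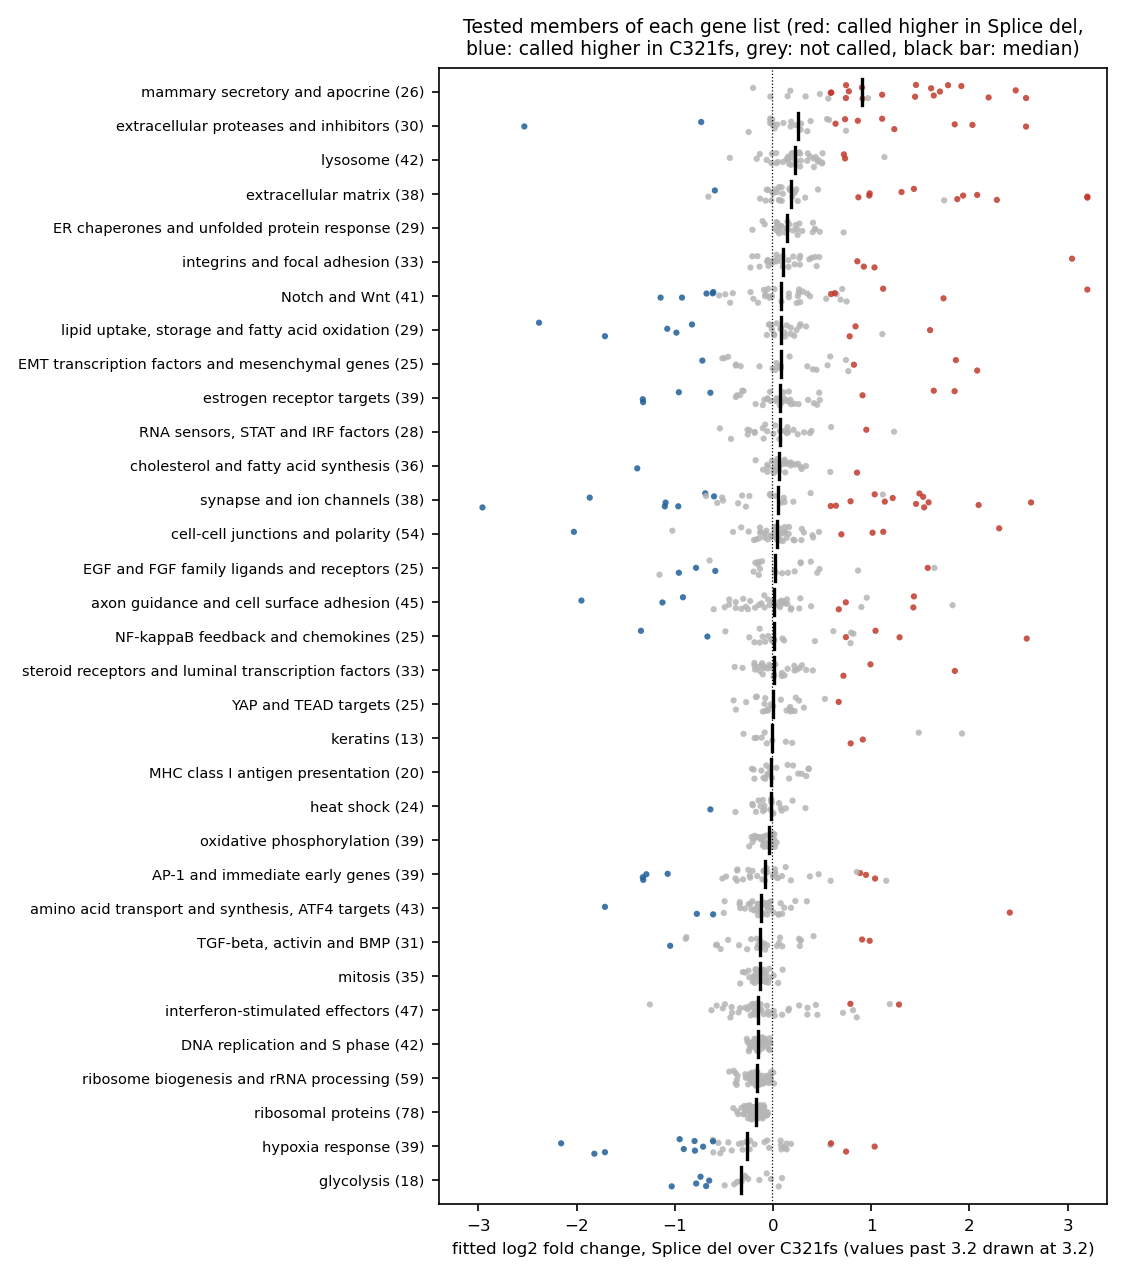
Fitted log2 fold change of Splice del over C321fs (horizontal) for each tested member of the 33 gene lists (rows, with the number of tested members in parentheses), where the black bar marks the median of a list and the dotted line that of all tested genes. The secretory and apocrine list lies farthest to the right with a median of 0.91, and glycolysis farthest to the left with a median of -0.32.

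Of 38 tested genes of the extracellular matrix, 11 (28.9%) were higher in Splice del, against 1.76% of all tested genes. Higher in C321fs was 1 (2.63%), against 0.879%. The median log2 fold change was 0.18 (0.31 without C321fs replicate 3 and 0.12 without C321fs replicate 2). DCN (chr12:91145258-91183029), the small proteoglycan decorin, had 216, 225 and 164 counts in the Splice del libraries and 1, 0 and 1 counts in the C321fs libraries. Its level was thus at least 61.3-fold higher in Splice del, taking 3 counts per library as the floor. LUM, the related proteoglycan lumican, lies next to DCN on chromosome 12 and was at 2.3, 1.86 and 1.29 CPM against 0.426, 0.208 and 0.486 CPM (2.28 ± 0.31, adjusted p = 9.1e-05). Neither gene had overlapping groups. DCN and LUM are also fibroblast markers, and 4 of the 8 fibroblast markers passed the filter on low counts. The summed level of the 8 was 52.9 to 57.7 CPM in Splice del and 41.3 to 50.2 CPM in C321fs. COL1A1, which made up most of it, differed by 0.09 and COL3A1 by -0.06, and neither was called. COL1A2 and PDGFRB were at 0 counts in the Splice del libraries and at 0 or 1 in the C321fs libraries.

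The collagen gene COL11A1 was at 1.5, 1.65 and 2.3 CPM in Splice del and at 0.0304, 0.139 and 0.0324 CPM in C321fs (4.71 ± 0.46, adjusted p = 2.8e-06). With 1, 4 and 1 counts in C321fs its fold change is loosely set, and the log2 value was 1.93 with the shrunken fold changes of DESeq2 and 5.67 without C321fs replicate 2. SPARC, a matricellular protein that binds collagen, was at 6.61, 7.3 and 8.11 CPM against 1.77, 1.63 and 1.78 CPM (2.08 ± 0.11, adjusted p = 3.5e-09). The fibrillar collagen gene COL27A1 differed by 1.93 ± 0.13. MGP, the matrix Gla protein, which inhibits calcification, was high in both mutants, with 1870.2, 1884 and 1909 CPM in Splice del and 975, 968 and 930.0 CPM in C321fs (0.98 ± 0.05, adjusted p = 1.8e-09). NTN4, a netrin of basement membranes, was at 57.6, 55.2 and 54.2 CPM against 19.8, 22.1 and 19.9 CPM (1.43 ± 0.06, adjusted p = 3.5e-10). The groups were apart in each of these genes. The single member higher in C321fs was COL12A1 (-0.59), which lost its call without C321fs replicate 3 (-0.42) or Splice del replicate 1 (-0.57).

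Among 30 tested proteases and their inhibitors, 8 (26.7%) were higher in Splice del and 2 (6.67%) in C321fs. Over all tested genes the shares were 1.76% and 0.879%. TIMP3, an inhibitor of metalloproteinases bound to the matrix, was higher in Splice del by 2.03 ± 0.28, whereas the membrane metalloproteinase MMP16 was higher in C321fs by 2.53 on the same scale (-2.53 ± 0.23, adjusted p = 1.3e-06). MMP16 was at 0.568, 0.295 and 0.592 CPM in Splice del and at 2.34, 3.02 and 3.11 CPM in C321fs. The cathepsin gene CTSV was higher in Splice del by 0.73. Of 42 lysosomal genes only CTSV and GALC, which degrades galactosylceramide, were called (4.76%, against 1.76% of all tested genes), but the list leaned the same way. Its median was 0.22, and in 30 members all Splice del libraries were above, against 15.4% of all tested genes.

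Among 25 mesenchymal genes and EMT transcription factors, 3 (12.0%) were higher in Splice del (5 without C321fs replicate 2) and 1 (4.0%) in C321fs. Over all tested genes the shares were 1.76% and 0.879%. The median of the list was 0.08. VIM, which encodes vimentin, was at 8.23, 8.57 and 8.22 CPM in Splice del and at 4.17, 5.17 and 4.83 CPM in C321fs (0.82 ± 0.12, adjusted p = 0.00014). The 2 groups did not overlap, and VIM-AS1, which overlaps VIM on the other strand, differed by 1.86 in counts that ignore strand. FOXC1, a forkhead factor of mesenchyme, was higher in C321fs (-0.72). TP63, a transcription factor of basal cells, was below 1 CPM in all 6 libraries, and it kept its call (-1.73) only without Splice del replicate 3, with an adjusted p of 0.0159 to 0.0423 without any of the other libraries.

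Genes of cell contacts were called in both directions. Of 54 tested genes of junctions and polarity, 4 were higher in Splice del (7.41%, against 1.76% of all tested genes) and 1 in C321fs (1.85%, against 0.879%). CGNL1, a scaffold protein of tight junctions, was at 4.88, 5.02 and 5.89 CPM in Splice del and at 0.944, 1.04 and 1.2 CPM in C321fs (2.30 ± 0.18, adjusted p = 2.1e-07). CLDN1, a claudin of tight junctions, was at 75.9, 74.5 and 74.7 CPM against 45, 47.9 and 46.1 CPM (0.70 ± 0.06, adjusted p = 2.9e-07). The opposite was found for GJA1 (chr6:121435577-121449744), a connexin of gap junctions, with 7.35, 7.56 and 8.15 CPM in Splice del and 27.4, 33.3 and 33.3 CPM in C321fs (-2.03 ± 0.10, adjusted p = 8.4e-10). Each of the 3 genes had groups that were apart. Of 33 tested genes of integrins and focal adhesion, 4 (12.1%, against 1.76% of all tested genes) were higher in Splice del. Among these 4 were ITGB8 (1.03), the kinase FYN (0.92) and the leukocyte integrin ITGAM. ITGAM had 21, 26 and 19 counts in Splice del and 1, 3 and 3 in C321fs, while the leukocyte markers PTPRC and CD3E had 0 counts in all 6 libraries and the 5 leukocyte markers summed to 4.76 to 5.99 CPM in Splice del and 5.05 to 6.21 CPM in C321fs. The fourth, SH3PXD2A (0.86), was not called without C321fs replicate 2 or Splice del replicate 2 (adjusted p = 0.0112 and 0.0110).

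Genes outside the lists described so far had some of the smallest adjusted p-values. CDC42EP3 (chr2:37641882-37672535), an effector of the GTPase CDC42, was at 62.4, 59.9 and 61.9 CPM in Splice del and at 12.5, 15.0 and 12.5 CPM in C321fs (2.20 ± 0.07, adjusted p = 1.8e-11). SLC6A14, an amino acid transporter, was at 112, 107 and 102 CPM against 18.8, 19.3 and 22.3 CPM (2.41 ± 0.09, adjusted p = 8.6e-11). GALNT5, which starts O-glycans on mucins, was at 8.49, 8.13 and 8.53 CPM against 0.974, 0.867 and 1.1 CPM (3.09 ± 0.13, adjusted p = 1.8e-10). The Splice del libraries of all 3 genes were several times above the C321fs libraries. COLCA1 differed by 2.04 ± 0.07 and overlaps COLCA2. GPR65, a receptor that senses acid, had 47, 33 and 31 counts in Splice del and none in C321fs, at least 11.2-fold higher at the floor of 3 counts. The apoptosis inhibitor BCL2 was higher in Splice del by 1.85 ± 0.15.

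Some glycolysis genes were higher in C321fs. Of 18 tested members 5 were higher in C321fs, against 0.879% of all tested genes. None was higher in Splice del (0 also by DESeq2 and at an unadjusted p below 0.05). The median log2 fold change was -0.32. In 13 members all C321fs libraries were above all Splice del libraries, against 14.3% of all tested genes, and in none the other way. Leaving out 1 library gave 4 to 6 called members, and a test against a fold change of 1.5 gave 1. LDHA (chr11:18394389-18408218), the lactate dehydrogenase subunit that makes lactate, was at 408, 442 and 475 CPM in Splice del and at 728, 788 and 694 CPM in C321fs (-0.74 ± 0.07, adjusted p = 1.1e-06). PFKP, the platelet form of phosphofructokinase, was at 72.8, 81.6 and 85.1 CPM against 168, 167 and 154 CPM (-1.03 ± 0.07, adjusted p = 3.1e-08). No Splice del library reached a C321fs library in either gene. PGK1, a kinase of the ATP-making steps, differed by -0.68 ± 0.07 and SLC16A3, which exports lactate, by -0.78 ± 0.09. The fifth, ALDOC, an aldolase, differed by -0.65 and fell short of the fold change limit without C321fs replicate 2 (-0.58).

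The hypoxia response list, which shares no called gene with glycolysis here, had a median of -0.27. Of its 39 tested members 9 (23.1%) were higher in C321fs, against 0.879% of all tested genes. Higher in Splice del were 3 (7.69%), against 1.76%. Tested against a fold change of 1.5, 2 members were higher in C321fs and 0 in Splice del. Without Splice del replicate 1, 5 members were higher in C321fs. VEGFA, which drives vessel growth, was at 27.7, 29.4 and 28.8 CPM in Splice del and at 48.9, 48.4 and 43.5 CPM in C321fs (-0.71 ± 0.07, adjusted p = 1.8e-06). BNIP3, a mitophagy receptor, was at 31.2, 36.1 and 37.3 CPM against 72.4, 73.8 and 55.8 CPM (-0.95 ± 0.09, adjusted p = 3.2e-06). PDK1, a kinase that inhibits pyruvate dehydrogenase, differed by -0.91 ± 0.09. C321fs replicate 3 was the lowest of its group in these genes and still above every Splice del library. NDRG1 was at 1.63, 2.25 and 2.58 CPM in Splice del and at 8.31, 9.68 and 4.5 CPM in C321fs (-1.82 ± 0.24, adjusted p = 7.5e-05), and the lipoprotein receptor VLDLR differed by -1.71 ± 0.22.

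CA9, a carbonic anhydrase used as a marker of hypoxia, was low in both mutants, at 0.31, 0.325 and 0.0697 CPM in Splice del and at 1.67, 1.18 and 0.454 CPM in C321fs (-2.16 ± 0.47, adjusted p = 0.0058). Of the fits that left out 1 library it was called only in the one without C321fs replicate 3, and leaving out any of the other 5 libraries gave an adjusted p of 0.0154 to 0.0326. Against the direction of the list, RNASE4 (1.03) and ANG (0.74), which overlap each other, were higher in Splice del, as was EPAS1 (0.59 ± 0.06), a hypoxia-inducible factor subunit. EPAS1 was at 55.9, 58.7 and 62.0 CPM in Splice del and at 36.2, 40.8 and 40.3 CPM in C321fs, and its log2 fold change was 0.54 without C321fs replicate 1 and 0.55 without Splice del replicate 3, below the limit.

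**Figure D3:**
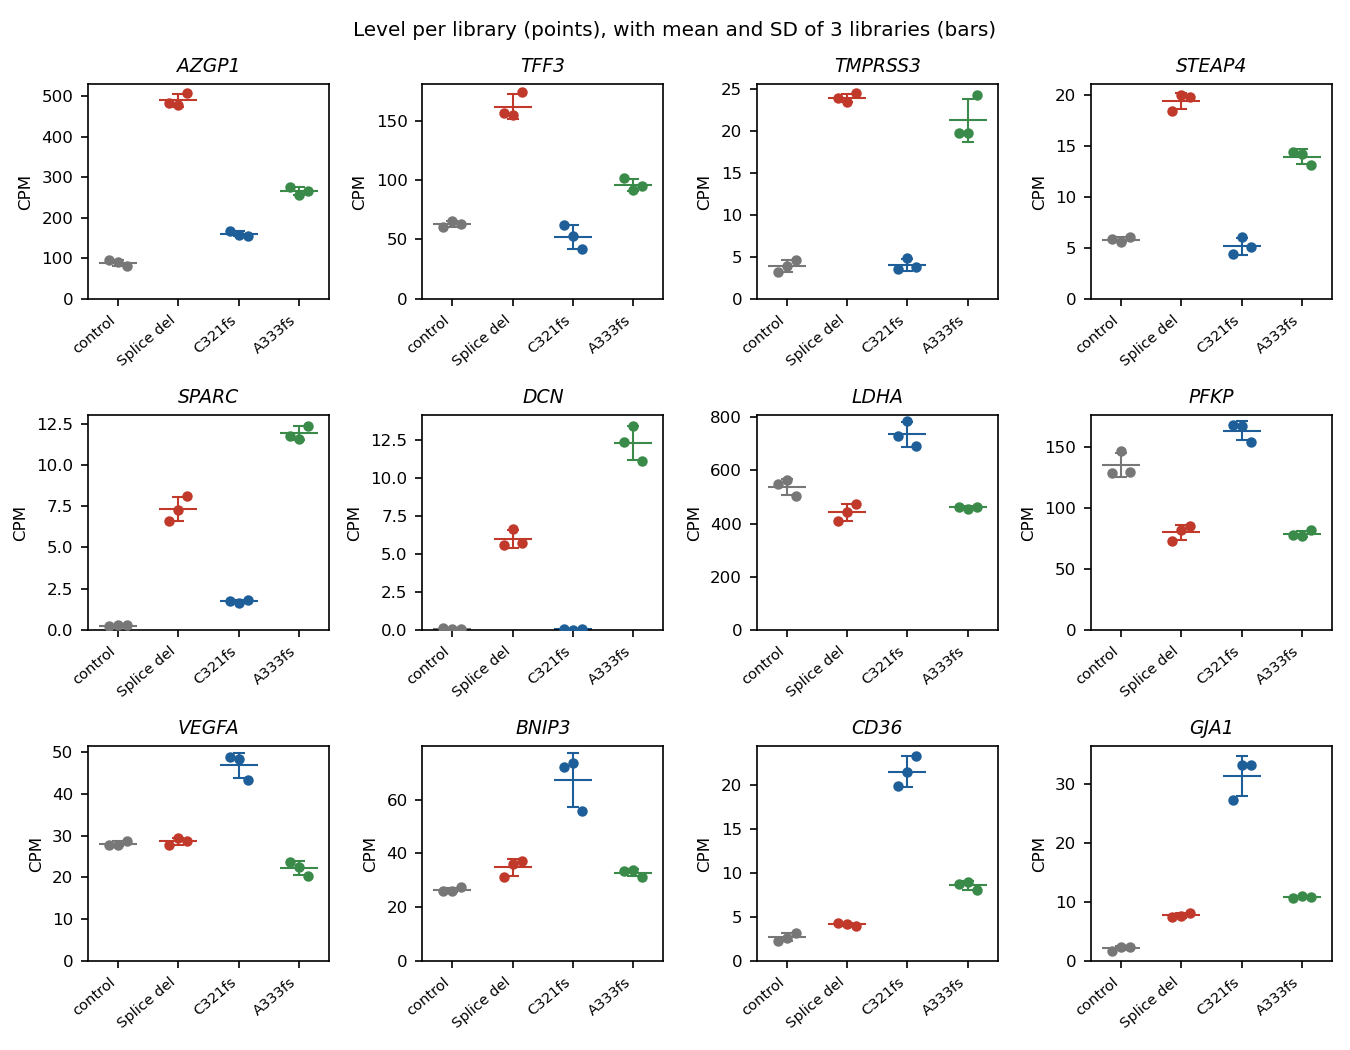
CPM (vertical) of 12 genes in each of the 3 libraries of the 4 lines (points), with the mean and SD of the 3 libraries as bars. The first 6 genes are highest in Splice del or A333fs and lower in C321fs than in both of these. The control mean lies below C321fs in AZGP1 and SPARC and close to it in TMPRSS3. The last 6 genes are highest in C321fs.

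Of 29 tested genes of lipid uptake, storage and oxidation, 5 (17.2%) were higher in C321fs and 3 (10.3%) in Splice del. Over all tested genes the shares were 0.879% and 1.76%. CD36 (chr7:80602188-80679277), a fatty acid transporter, was at 4.23, 4.17 and 3.94 CPM in Splice del and at 19.8, 21.4 and 23.3 CPM in C321fs (-2.38 ± 0.10, adjusted p = 1.7e-10). MGLL, which releases fatty acids from monoglycerides, differed by -0.98 ± 0.09, and ACOX2, a peroxisomal oxidase of branched chains, by -0.82 ± 0.06. The C321fs libraries were higher in all 3 genes without overlap. The 2 dihydroceramide desaturases differed in opposite directions, DEGS2 by -1.08 ± 0.09 and DEGS1 by 0.84 ± 0.06. DEGS1 was at 179, 180.1 and 172 CPM in Splice del and at 104, 94.7 and 97.8 CPM in C321fs, and DEGS2 at 44.5, 42.3 and 47.1 CPM against 109.6, 88.5 and 84.2 CPM.

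Signalling genes were called in both directions. PLK2 (chr5:58453983-58460139), a polo-like kinase induced by stress and growth signals, had the smallest adjusted p among the genes higher in C321fs, with 62.9, 64.5 and 60.0 CPM in Splice del and 149.6, 160.1 and 159 CPM in C321fs (-1.32 ± 0.05, adjusted p = 1.3e-10). AREG, an EGF receptor ligand, was at 18.5, 19 and 19.7 CPM against 38.1, 38.9 and 34.2 CPM (-0.96 ± 0.07, adjusted p = 5.5e-08), and KITLG, the ligand of the KIT receptor, differed by -0.78 ± 0.09. In each of them every C321fs library was above every Splice del library. Among prostaglandin genes, PTGES (-1.34 ± 0.09), the synthase of prostaglandin E, and its receptor PTGER4 (-0.67 ± 0.07) were higher in C321fs, whereas the cyclooxygenase PTGS1 (2.58 ± 0.17) was higher in Splice del. CITED2, a regulator of transcriptional coactivators, was at 168, 185 and 195 CPM in Splice del and at 93.3, 93.6 and 79.4 CPM in C321fs (1.04 ± 0.07, adjusted p = 4.3e-08).

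Of 39 estrogen receptor targets, 3 (7.69%) were higher in Splice del and 4 (10.3%) in C321fs, against 1.76% and 0.879% of all tested genes. The progesterone receptor gene PGR (0.22, adjusted p = 0.099) and GREB1 (0.07, adjusted p = 0.54), both induced by estrogen, were not called. NPY1R, a neuropeptide receptor, was higher in C321fs (-1.32 ± 0.11) and HSPB8, a small heat shock protein, likewise (-0.64 ± 0.06), whereas TFF1, TFF3 and BCL2 were higher in Splice del. Of 33 steroid receptors and luminal factors, the nuclear receptors NR2F1 (0.99 ± 0.07) and NR5A2 (0.72 ± 0.07) and the factor TFAP2B (1.85 ± 0.28) were higher in Splice del and none in C321fs. These 3 made up 9.09% of the tested list, against 1.76% of all tested genes. In the Notch and Wnt list 5 of 41 (12.2%) were higher in each mutant, against 1.76% of all tested genes toward Splice del and 0.879% toward C321fs. There were 3 toward Splice del without Splice del replicate 1 and 3 toward C321fs without C321fs replicate 1. The Notch ligand DLL1 was higher in Splice del (1.12 ± 0.10), while the ligand JAG2 (-0.61) and the Notch glycosyltransferase LFNG (-0.68) were higher in C321fs, but JAG2 was not called without C321fs replicate 1 (-0.54) or Splice del replicate 2 (-0.57), nor LFNG without C321fs replicate 1 (-0.55).

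Synapse and ion channel genes were frequent on both sides, 13 of 38 (34.2%) higher in Splice del and 7 (18.4%) in C321fs. Over all tested genes the shares were 1.76% and 0.879%. Tested against a fold change of 1.5, 8 members were higher in Splice del and 2 in C321fs. Of the list's potassium channel genes KCNMA1 (1.14 ± 0.07), KCNF1 (1.03 ± 0.07) and KCNK3 (2.63 ± 0.38) were higher in Splice del, as was the sodium channel gene SCN9A (2.09). KCNH1, a potassium channel gene outside the list, was higher in C321fs (-0.62 ± 0.08), but not called without C321fs replicate 3 (-0.57) or Splice del replicate 1 (-0.56). KCNF1 was at 75.5, 72.1 and 80.3 CPM in Splice del and at 39.6, 35.7 and 36.0 CPM in C321fs. RIMS1 (-1.87 ± 0.21), a scaffold of vesicle release, and the synaptotagmins SYT12 (-0.69 ± 0.07) and SYT17 (-1.10 ± 0.13) were higher in C321fs, whereas RIMS2, the paralogue of RIMS1, was higher in Splice del (0.64 ± 0.12) and not called without Splice del replicate 1 or 2 (adjusted p = 0.0149 and 0.0154). Also higher in C321fs was the hedgehog coreceptor BOC (-1.95 ± 0.13), which overlaps CFAP44.

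Genes of growth showed small differences in one direction. None of 78 ribosomal protein genes, 59 genes of ribosome biogenesis, 42 of DNA replication and 35 of mitosis was called by edgeR or DESeq2. Their medians were -0.18, -0.17, -0.16 and -0.13. At any fold change 0, 9, 2 and 1 members had an adjusted p below 0.01, all higher in C321fs. Over all tested genes 2.14% passed this cut toward C321fs, and the 1 of 35 mitosis genes is near that share. At an unadjusted p below 0.05 there were 49, 36, 27 and 13 toward C321fs and none toward Splice del. All C321fs libraries were above all Splice del libraries in 14, 35, 29 and 15 members, with none the other way. The 14 of 78 ribosomal protein genes are near the 14.3% found over all tested genes. The median of the ribosomal protein genes was -0.26 without C321fs replicate 3 and -0.10 without C321fs replicate 1. Genes of ER chaperones leaned toward Splice del, with a median of 0.15 and none called by edgeR or DESeq2. At any fold change 5 of 29 had an adjusted p below 0.01 toward Splice del, against 4.18% of all tested genes. At an unadjusted p below 0.05 there were 16 toward Splice del and 1 toward C321fs. The share of all tested genes at this unadjusted cut was not counted, so the numbers at it have no background beside them.

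The interferon genes depended on which C321fs libraries were used. Of 47 tested effectors only APOL6 (0.79) and UBA7 (1.28) were called, both higher in Splice del (4.26%, against 1.76% of all tested genes). UBA7 was not called without C321fs replicate 2 or 3 or Splice del replicate 1 or 3 (adjusted p = 0.0111 to 0.0210). MX1, an antiviral GTPase, was at 57.9, 61.1 and 63.5 CPM in Splice del and at 47.4, 70.0 and 115 CPM in C321fs (-0.35, adjusted p = 0.29). The C321fs libraries of MX1 lay on both sides of the Splice del libraries. The median of the list was -0.15, but 0.05 without C321fs replicate 3 and -0.26 without C321fs replicate 1, where 4 members were higher in C321fs.

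Most lists not described so far held few called genes in number, but few is not a low share in short lists. Over all tested genes, 1.76% were higher in Splice del and 0.879% in C321fs. Wherever one of these lists had a called member in a direction, its share was above that background. In lists of this size 1 called member is enough for that. Of 39 AP-1 and immediate early genes 3 were higher in Splice del and 4 in C321fs (2 without C321fs replicate 2 or Splice del replicate 1 or 2), with PHLDA1, a gene induced by growth factors, at 0.89 ± 0.06 and the ETS factor ETV4 at -1.29 ± 0.19. Of 25 NF-kappaB genes and chemokines 4 and 2 were called, with the receptors CXCR4 (1.29) and TNFRSF11A (1.04) higher in Splice del. Of 45 axon guidance genes 4 and 3 were called, the former with SRGAP3, which acts on small GTPases, at 52.9, 49 and 51.4 CPM in Splice del and at 17.7, 19.4 and 19.9 CPM in C321fs (1.43 ± 0.06, adjusted p = 2.5e-10). Its groups were far apart. The counts toward Splice del and C321fs were 1 and 3 of 25 EGF and FGF genes (2 toward Splice del without C321fs replicate 1), 1 and 1 of 36 genes of cholesterol and fatty acid synthesis, 1 and none of 25 YAP targets and none and 1 of 24 heat shock genes. Of 43 amino acid and ATF4 genes 1 was higher in Splice del and 3 in C321fs (1 without C321fs replicate 2 or Splice del replicate 2 or 3). Of 13 keratins 2 were higher in Splice del, KRT15 (0.79) and KRT4 (0.91), and KRT4 was called only without C321fs replicate 2 (adjusted p = 0.0103 to 0.0212 without another library). Of 28 RNA sensors and their factors TLR6 (0.95) was higher in Splice del, called only without Splice del replicate 2 (adjusted p = 0.0105 to 0.0489 without another library). None of 20 genes of MHC class I presentation or 39 of oxidative phosphorylation was called by edgeR or DESeq2. At an unadjusted p below 0.05 there were 7 and 0 toward Splice del and 2 and 5 toward C321fs. The share of all tested genes at that cut was not counted.

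Some of the called genes were neighbours on a chromosome, counted among tested genes only. In 5 places 3 or more genes in a row were called in the same direction, 4 toward Splice del and 1 toward C321fs, which held 19 genes in all, and there were 22 and 4 adjacent pairs. On chromosome 7 (99923269 to 100065041) GJC3 (1.01), AZGP1 (1.61), AZGP1P1 (1.46), the zinc finger gene ZKSCAN1 (0.81) and ZSCAN21 (0.64) were all higher in Splice del within 142 kb, of which ZSCAN21 was not called without C321fs replicate 2 or Splice del replicate 3 (adjusted p = 0.0135 and 0.0136). On chromosome 21 (42199689 to 42396846) the cholesterol exporter ABCG1 (0.85), TFF3 (1.64), TFF1 (0.91) and TMPRSS3 (2.58) were higher in Splice del within 197 kb. The next gene, RSPH1, was at 0.89 with an adjusted p of 0.0158 and the one after it, SLC37A1, was called (0.61).

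On chromosome 9 (114091638 to 114394405) the kinesin KIF12 (1.53), COL27A1 (1.93), ORM2 (1.70, not called without 4 of the libraries as given above) and AKNA (0.73) formed a run of 303 kb toward Splice del. The run toward C321fs was on chromosome 7 (80134824 to 80679277), where the G protein subunits GNAI1 (-1.09 ± 0.13) and GNAT3 (-2.96 ± 0.25) and the neighbouring CD36 (-2.38 ± 0.10) were higher in C321fs over 544 kb. GNAT3 was at 0.413, 0.473 and 0.244 CPM in Splice del and at 2.95, 2.67 and 3.4 CPM in C321fs. SEMA3C, the next tested gene, differed by -0.30 and was not called. STEAP4, STEAP1 and STEAP2 formed the remaining run, but STEAP4 starts 1878 kb from STEAP1. The median log2 fold change of whole chromosomes lay between -0.03 and 0.02.

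**Figure D4:**
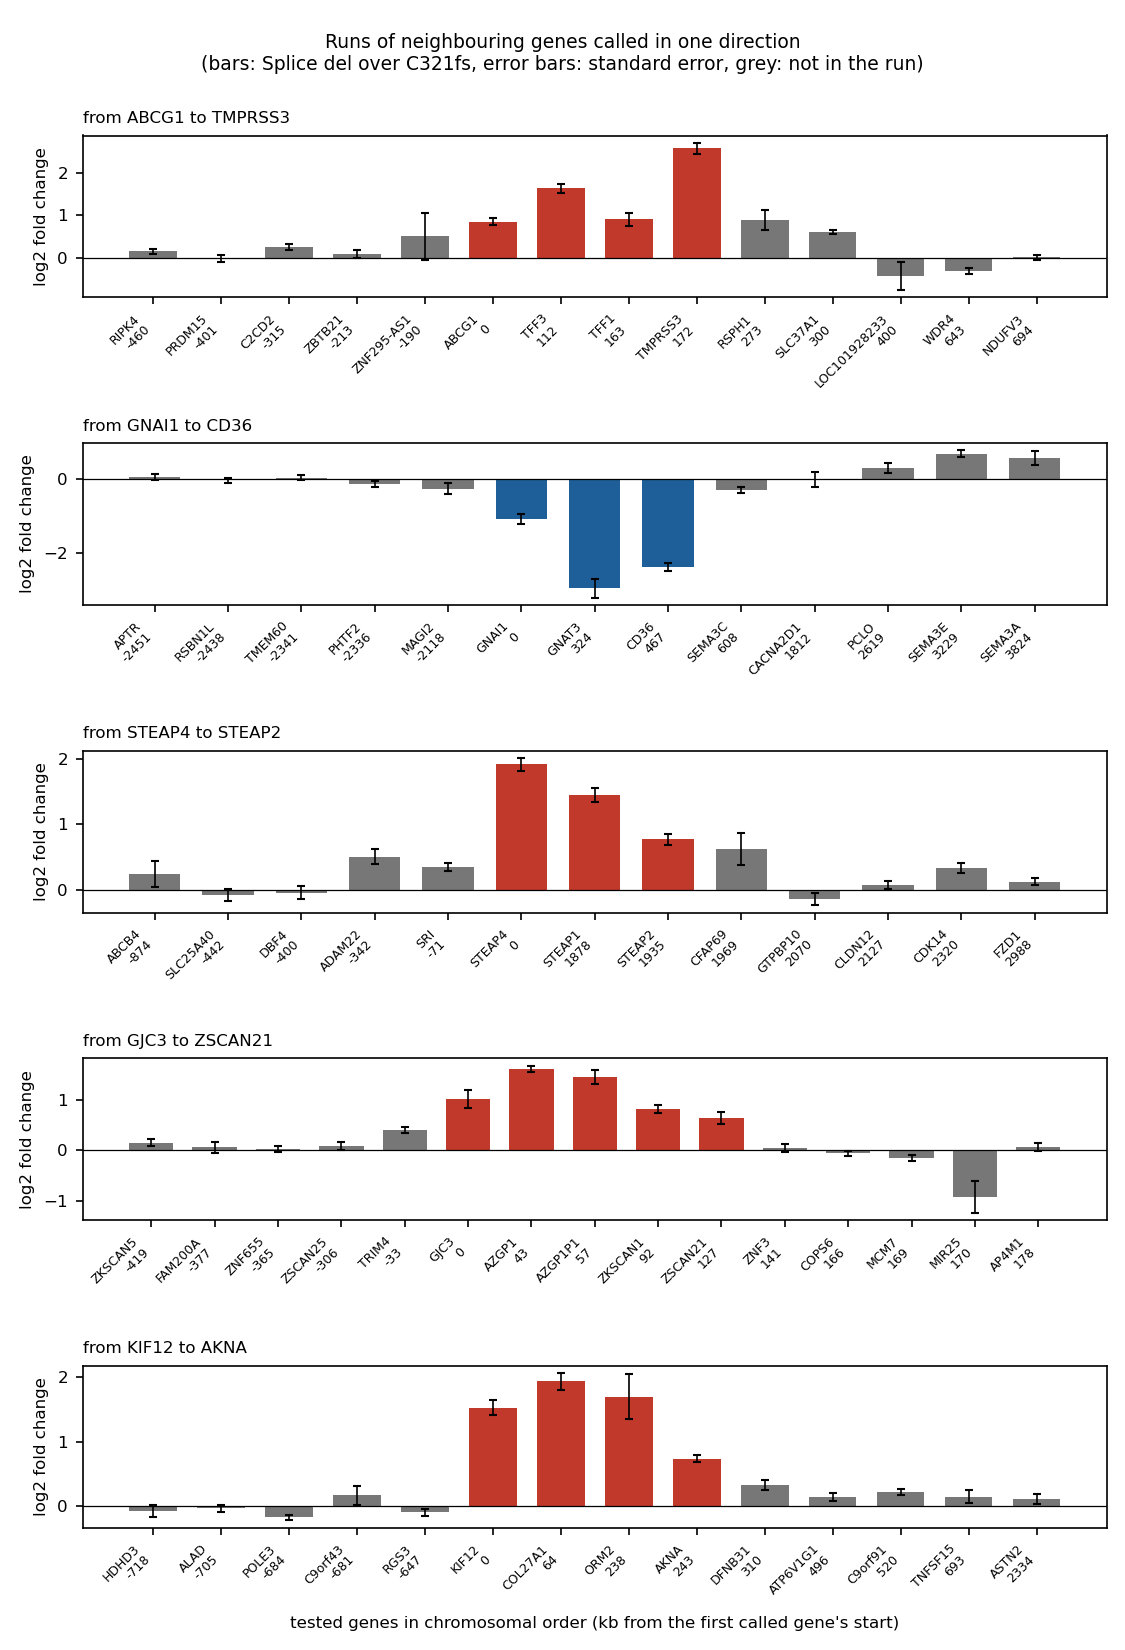
Fitted log2 fold change of Splice del over C321fs (vertical, error bars are SE) for the genes of the 5 runs (coloured) and the tested genes to either side (grey), in chromosomal order with the distance in kb from the start of the first gene of the run. The run toward C321fs ends between CD36 (-2.38) and SEMA3C (-0.30), whereas SLC37A1 (0.61) beyond the run on chromosome 21 was again higher in Splice del.

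The other lines were placed between the 2 mutants gene by gene, as a description with no test. Of the 261 genes higher in Splice del, the control mean was nearer to C321fs in 203 (77.8%), against 55.0% of all tested genes, and the A333fs mean was nearer to Splice del in 201 (77.0%), against 54.4%. The control was below both mutants in 125 of the 261 genes and between them in 121. AZGP1 was at 88.3 ± 7.86 CPM (SD, n = 3) in control and at 266 ± 9.65 CPM in A333fs, and TMPRSS3 at 3.93 ± 0.698 and 21.3 ± 2.58 CPM. Both control levels were thus at or below the C321fs level, and both A333fs levels lay above it.

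Of the 130 genes higher in C321fs, the control mean was nearer to Splice del in 65 (50.0%) and the A333fs mean was nearer to Splice del in 105 (80.8%). The control lay between the mutants in 79 of these genes, below both in 27 and above both in 24. LDHA was at 538 ± 31.8 CPM in control and at 461 ± 4.52 CPM in A333fs, and VEGFA at 28.1 ± 0.572 and 22.2 ± 1.66 CPM. CD36 was at 2.67 ± 0.43 CPM in control and at 8.54 ± 0.505 CPM in A333fs, so that C321fs was the highest of the 4 lines in all 3 genes. The claudin gene CLDN1, which was higher in Splice del, was at 154 ± 9.99 CPM in control and at 138 ± 1.31 CPM in A333fs, above both mutants.

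**Figure D5:**
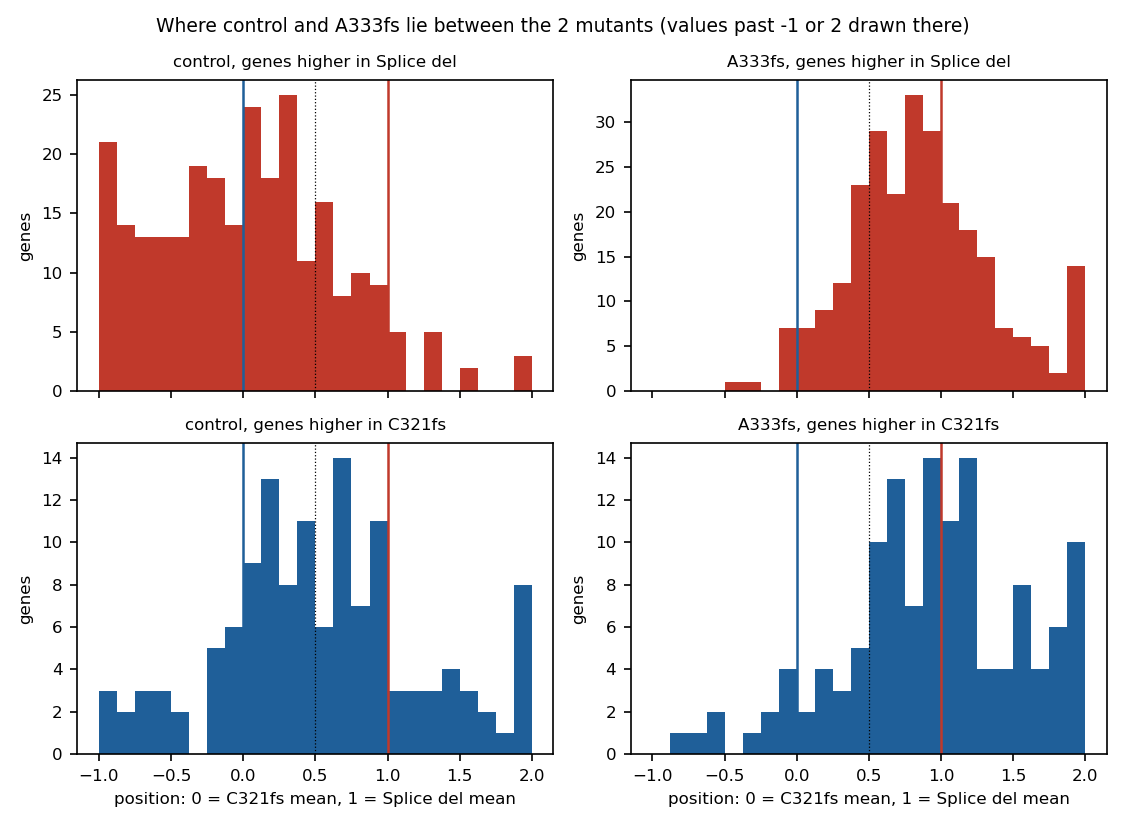
Number of genes (vertical) by the position of the control mean (left) or the A333fs mean (right) on the log2 scale, where 0 is the C321fs mean and 1 the Splice del mean (horizontal), for the 261 genes higher in Splice del (top) and the 130 higher in C321fs (bottom). Most A333fs values lie to the right of the midpoint in both groups of genes, 201 of 261 and 105 of 130.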

How the data were processed

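RNA-seq counts of T47D cells were used, and ChIP-seq of the same lines was not used here. The authors deposited raw counts of fragments per gene, made with featureCounts after trimming with Trimmomatic and alignment to hg38. Overlapping and multi-mapping fragments were left out and strand was ignored, so genes with a near-identical copy or an overlapping partner are uncertain. The aligner is not settled: the submitters' processing notes list HISAT2, and the folder names in the header of the count table contain STAR. Growth media differ between the labels and the study's methods. The 12 libraries were made with 1 kit and sequenced in 1 lane. Nothing in the labels says that replicates were separate cultures, so p-values measure the spread between these libraries.

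From the counts, edgeR 4.0.16 in R 4.3.3 kept 14789 of 26485 genes (filterByExpr by line), scaled them by TMM (factors 1.02 to 1.05 in the 6 libraries) and fitted the 12 libraries with 1 coefficient per line and no covariates (glmQLFit, glmQLFTest). A call needed an adjusted p (Benjamini-Hochberg) under 0.01 with a fold change above 1.5. The authors' DESeq2 was run as an alternative (1.42.0), beside other scalings, filters, thresholds, a replicate block, removal of the GC and length trend, and leaving out each library. Standard errors are the log2 fold change over the root of F. The code was tested on simulated data. CPM used TMM library sizes, and fold changes against lines with at most 3 counts in every library are lower bounds.

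The comparison, the 33 gene lists and the choice of genes were made with earlier results of these data known. Genes named are GATA3, the 12 with the largest fold change in each direction at 1 CPM or more, the 8 with the smallest adjusted p, up to 4 called members of each list and direction, runs of 3 or more neighbours and up to 3 at the floor in each direction, as far as they help the account. Named after their values were seen were the other called members of the lists, TP63, SLC37A1, KCNH1 and the retinoid genes, and genes quoted as not called. The TGF-beta list is not reported here. Promoters came from RefSeq (GRCh38.p14), which matched 11369 of 14789 tested genes on the same chromosome. Replicates varied with a coefficient of variation of 6.73% (common dispersion 0.00453).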

Additional observations from a re-analysis of the deposited data

How the results depend on the processing

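The counts of 261 genes higher in Splice del and 130 higher in C321fs stayed within 1.5 times under DESeq2 (262 and 131), DESeq2 with shrunken fold changes (231 and 110), other scalings (263 to 281 and 124 to 132), at least 10 counts in every library (222 and 114), no filter (307 and 147), the 6 libraries alone (242 and 109), an adjusted p below 0.05 (325 and 175) and removal of the GC and length trend (264 and 154). With no minimum fold change they were 618 and 317, and tested against a fold change of 1.5 they were 92 and 24. The numbers of the replicates did not pair the libraries, since the correlations of same-numbered libraries were -0.08, 0.05 and -0.08. A replicate block gave 253 and 117, and a replicate block with the 6 libraries alone, chosen after seeing the data, gave 195 and 77. Leaving out 1 library gave 216 to 250 and 93 to 128 genes, of which 178 of 261 and 65 of 130 were called in all 6 fits. Of 169 called genes named or listed, 44 lost the call in at least 1 of these fits, and none of their fold changes changed sign under any alternative. Genes with a longer exon length had fold changes more toward Splice del (Spearman's rank correlation 0.20 over 14789 genes, which are not independent). The median exon length was 4141 bases in genes called higher in Splice del, 2958 in those called higher in C321fs and 3148 over all tested genes. The same correlation with exon GC content was -0.03. The median exon GC was 53.9% in genes called higher in C321fs, 50.4% in those called higher in Splice del and 49.6% over all tested genes. With 3 libraries of 1 pool per mutant, what depth limits was not tested, and CA9 is called on 55, 34 and 14 counts in C321fs against 12, 11 and 2 in Splice del.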

Other observations

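Some genes of retinoic acid metabolism and response, looked at after their values had been seen, also differed. Of 15 such genes 9 were tested, 5 were higher in Splice del and 1 in C321fs. Over all tested genes the shares were 1.76% and 0.879%. The genes were chosen with their values in view, so the counts cannot be weighed against these shares. ALDH1A3, which makes retinoic acid, was at 42.0, 40.9 and 41.8 CPM in Splice del and at 20.9, 22.5 and 21.2 CPM in C321fs, without overlap (0.95 ± 0.06, edgeR adjusted p = 1.7e-08). RARRES3, a gene induced by retinoids, differed by 0.72 ± 0.10, and DHRS3, which reduces retinal, by 0.65 ± 0.08, although it was at 0.58 without C321fs replicate 3, below the fold change limit. CYP26A1, which degrades retinoic acid, was at 1.68, 1.39 and 1.22 CPM against 0.731, 0.624 and 0.421 CPM (1.28 ± 0.25, adjusted p = 0.0026), and was not called without C321fs replicate 2 or 3 or Splice del replicate 1 (adjusted p = 0.0112 to 0.0197). CYP26B1 (1.12) kept its call only without Splice del replicate 3, and RDH16 (-1.36), the member higher in C321fs, in none of the 6 fits that left out a library. CRABP2, a carrier of retinoic acid, differed by -0.12 and was not called.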
